A study of Homo sapiens with 14 samples.

Results

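MDA-MB-231, a widely used human breast cancer cell line, was grown in DMEM:F12 with 10% serum, and its cells were given 1 of 2 different siRNA mixes against BRD genes or a control siRNA. The comparison rests on 6 of the 14 libraries of the series: 2 with BRD siRNA mix A, 2 with BRD siRNA mix B, and 2 with control siRNA. The libraries were taken by their titles. Both mixes counted equally, and a gene was reported as changed when it passed the test in each mix in the same direction. A further 2 libraries from cells treated with DMSO, the solvent of the inhibitor arm, served as a second control. The remaining libraries were from cells given the inhibitor JQ1 (1 µM, 24 h) or siRNA against YAP and TAZ (48 h). The BRD siRNAs were delivered with a lipid reagent 72 h before harvest. When the control siRNA and DMSO cells were harvested is not in the labels, and DMSO cells are not stated to have been transfected. The labels do not say whether the 2 libraries of a group came from separate cultures, so p-values measure only the spread between libraries, which may be technical.

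BRD2 and BRD3 belong to the BET (bromodomain and extra-terminal) family, nuclear proteins that read acetylated lysines on histones and help to release paused RNA polymerase II through the elongation factor P-TEFb. BET proteins are known for sustaining the transcription of growth and cell cycle genes in many cancer cells. The series title places them beside YAP and TAZ, co-activators of the Hippo pathway, whose target genes include CTGF and CYR61.

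Values are scaled RPM, read counts that the authors divided by their library's scaled depth, and a difference is a log2 fold change of (value + 1), so changes of low genes are understated. The 6 libraries held 15741695 to 29931316 reads in genes, and the DMSO libraries 32559505 and 37311326. A gene was called when its Benjamini-Hochberg adjusted p from limma, over all 13674 genes tested, was under 0.05. Called genes were common: 27.8% of all tested genes were higher in each mix (3804 genes) and 27.1% were lower (3711). The median change of all genes was -0.0047 for the mean of both mixes, and the median size of change among the 7515 genes called the same way was 0.67. Against DMSO as well, 6046 of the 7515 were again called the same way in each mix, which is 80.5%. These were 22.2% of all tested genes higher (3032) and 22% lower (3014). At 2-fold or more in each mix, 455 genes (3.33%) were higher and 796 (5.82%) lower. The 2-fold size held in all 4 comparisons of a mix with a control for 343 higher genes (2.51%) and 635 lower genes (4.64%). With every column scaled to an equal total, the same-direction split moved to 2971 higher and 4607 lower, since that scaling shifts the median of all genes by -0.11. The 2-fold split then became 319 higher and 1014 lower, and the split against both controls 2554 and 3439. The 2 comparisons share the BRD libraries, so the second control is a check and not independent evidence.

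**Figure D1:**
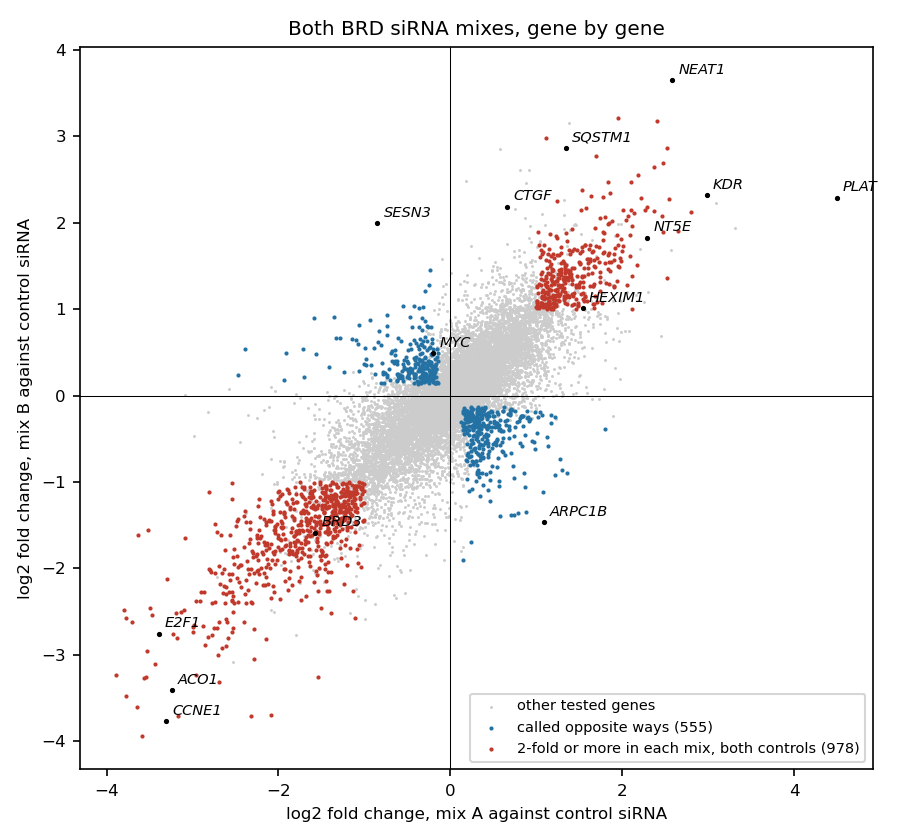
Each point is 1 of 13674 genes, with the log2 fold change of mix A against control siRNA on the x axis and of mix B on the y axis. Red points mark the 978 genes changed at least 2-fold in each mix against both controls, blue points the 555 genes called opposite ways in the mixes, and black points the genes named beside them. PLAT lies farthest right at 4.50 in mix A, and CCNE1 lies among the lowest at -3.76 in mix B.

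The targeted genes were read first. BRD3 read 32.5 and 29.7 with control siRNA, 10.6 and 9.05 with mix A, and 10.1 and 9.25 with mix B. Both mixes thus lowered the BRD3 mRNA 3.16-fold and 3.21-fold (log2 fold change -1.58 ± 0.075 SE, adjusted p = 7.82e-14, limma). All 4 BRD libraries lay below both control libraries, as they did in 32.1% of all tested genes. BRD2 read 251 and 252 with control siRNA, 204 and 175 with mix A, and 166 and 154 with mix B. The BRD2 mRNA fell 1.33-fold in mix A and 1.58-fold in mix B (-0.53 ± 0.056, adjusted p = 2.36e-08, limma), and the mixes differed by 0.24 (adjusted p = 0.00373). More BRD2 than BRD3 mRNA remained relative to control in each mix. Against DMSO the changes were -1.46 for BRD3 and -0.52 for BRD2. The list written as BET proteins and relatives had 12 tested. Of these, 7 were lower in each mix and 1 higher (all tested genes: 27.1% and 27.8%). The 7 include ATAD5, which unloads the replication clamp from DNA and has no bromodomain, so it is not a BET relative. ATAD5 read 53.6 and 48.6 in controls and 10.3 to 14 after BRD siRNA. BRD1, a scaffold of histone acetyltransferase complexes, rose by 0.58, and BRD7, BRD8 and BRD9 stood at -0.44, 0.14 and 0.091, of which only BRD7 was called in each mix.

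Genes of E2F factors and of cyclin E were among the deepest falls. E2F factors bind the promoters of replication genes, and cyclin E activates CDK2 at the G1/S transition. E2F1 read 82.8 and 90.0 with control siRNA, 6.92 and 7.70 with mix A, and 11.1 and 12.8 with mix B. E2F2 read 21.1 and 23.4 with control siRNA, 0.806 and 1.05 with mix A, and 0.646 and 0.384 with mix B. E2F8, an E2F repressor, read 34.7 and 31.7 with control siRNA, 1.75 and 1.72 with mix A, and 1.67 and 1.96 with mix B. Mix A lowered E2F1, E2F2 and E2F8 11.8-, 24- and 19.1-fold. All 4 BRD libraries lay below both control libraries, as they did in 32.1% of all tested genes. CCNE1 read 20.1 and 22.4 with control siRNA, 1.23 and 1.27 with mix A, and 0.680 and 0.597 with mix B, so the cyclin E1 mRNA was lowest in mix B. DMSO libraries read 106 and 108 for E2F1, 18.3 and 19.6 for E2F2, 40.0 and 39.1 for E2F8 and 13.2 and 11.9 for CCNE1, all above every BRD library. In 26.2% of all tested genes the BRD libraries lay below all control siRNA and DMSO libraries. CDK6, the kinase partner of D-type cyclins, read 349.6 and 345 with control siRNA, 83.9 and 78.3 in mix A, 143 and 137 in mix B and 195 and 195 in DMSO, so its fall of -1.70 ± 0.049 against control siRNA was -0.87 against DMSO. Of 35 G1/S regulators and E2F factors tested, 23 were lower in each mix and 5 higher (all tested genes: 27.1% and 27.8%). The median was -0.86, and 21 lower and 4 higher held against both controls (all tested genes: 22% and 22.2%). The falls included CDC25A (-2.85), CCNE2 (-2.67), MYBL2 (-1.99) and CDK2 (-1.48). The 5 that rose were E2F7 (1.01), an E2F repressor, the CDK inhibitors CDKN1A (0.96) and CDKN1B (0.42), cyclin D1 gene CCND1 (0.29), and E2F4 (0.26), which did not pass against DMSO in each mix. With quantile scaling CCND1 gave 0.06 and was not called.

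The replication machinery fell almost as a block. Of 58 tested DNA replication genes, 56 were lower in each mix, with a median of -1.60 (-1.85 in mix A, -1.42 in mix B and -1.93 against DMSO). Over all genes the share lower was 27.1% and the median near 0. The fall covered each stage of the process. MCM10, which helps to activate the replicative helicase, read 78.8 and 78.5 in controls, 4.31 and 5.12 in mix A and 12.3 and 14.4 in mix B. The origin licensing factor CDC6 read 202 and 185 in controls, 25.7 and 30.8 in mix A and 44.5 and 47 in mix B. Helicase subunit MCM7 read 405 and 409 in controls, 98.4 and 94.1 in mix A and 163 and 159 in mix B. For MCM10, CDC6 and MCM7 mix A was the lower of the mixes. UHRF1, which brings the maintenance DNA methyltransferase to newly made DNA, went the other way between mixes, with 145 and 137 in controls, 20.6 and 21 in mix A and 16 and 17.6 in mix B. Origin binding (ORC1, -2.58), the GINS complex (GINS1, -2.64), primase (PRIM1, -2.31), the sliding clamp (PCNA, -0.98) and nucleotide supply (RRM1, -2.26; TYMS, -1.53) were all lower. The genes not called in each mix were the origin subunits ORC4 (0.25), the one member above 0, and ORC5 (-0.20). In bulk RNA, fewer cells in S phase and less RNA of a gene in each cell cannot be told apart.

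Genes of homologous recombination and the replication checkpoint followed the same pattern. In that list 30 of 34 genes were lower in each mix and against both controls (all tested genes: 22%). The median was -1.67. FANCD2, the core protein of interstrand crosslink repair, read 105 and 88.9 in controls against 12.5 to 14 in the 4 BRD libraries. BRCA1 stood at -2.01, BRCA2 at -1.71 and CHEK1, the checkpoint kinase, at -1.72. The exceptions were the damage-sensing kinases ATM (-0.093) and ATR (0.023), with CHEK2 (-0.10) and RAD50 (-0.12), none of which was called in each mix. Mitotic genes were lower in 49 of 51 cases (all tested genes: 27.1%), with a median of -1.31. Of the falls, 48 held against both controls (all tested genes: 22%). ANLN, which scaffolds the contractile ring of dividing cells, read 882 and 799 in controls, 138 and 149 in mix A and 154 and 170.1 in mix B. The separase gene ESPL1 read 74.1 and 72.2 in controls, 12.1 and 11.5 in mix A and 13.9 and 14.7 in mix B, and the kinesin KIF2C 303 and 289 in controls, 52 and 55.4 in mix A and 59.6 and 66.2 in mix B. ANLN, ESPL1 and KIF2C thus separated controls from BRD libraries by far more than they separated the mixes. The exceptions were PTTG1 (-0.22), which was not called in mix A, and BUB3, which was called in opposite directions (-0.25 in mix A and 0.20 in mix B). The proliferation marker MKI67 fell by 1.36.

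Replication-dependent histone genes, which supply histones for new chromatin in S phase, gave the lowest median of the 28 lists at -2.43. Of 37 tested, 36 were lower in each mix and against both controls (all tested genes: 22%). HIST2H2BE (-0.53) was not called in each mix. HIST1H2AJ read 139 and 131 with control siRNA, 9.43 and 11.6 with mix A, and 12.5 and 13.8 with mix B. HIST1H2BE fell from 77.9 and 67.2 to 4.03 and 4.67 in mix A and 5.03 and 6.22 in mix B, and HIST1H4A from 216 and 198 to 17 and 19.5 in mix A and 20.2 and 26.8 in mix B. The DMSO libraries read 145 and 139.7 for HIST1H2AJ, 97.4 and 95 for HIST1H2BE and 282 and 250.4 for HIST1H4A, each above the control siRNA libraries. HIST1H2BM (-3.40) and HIST1H2BA (-3.56) were also among the 12 largest falls. The smallest called fall was HIST1H2BK (-0.76). Histone genes are near-identical copies, so the split of reads between them is uncertain, although the list moved as a whole. The 5 cell cycle and histone lists together held 215 tested genes. Of these, 138 (64.2%) fell at least 2-fold in each mix against both controls, as 4.64% of all tested genes did. They made up 21.7% of the 635 genes that fell so. None of the 343 genes that rose by that rule (2.51% of all tested genes) was in the 5 lists. The lists were chosen with earlier results of these data known.

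Promoters of some of these genes carry words known from cell cycle transcription, and 6 are shown to give the DNA context of genes that fell together. The 6 were taken from the largest falls of their lists and kept because they hold the words, so they do not show how common the words are. Sequences are RefSeq, build GRCh38.p14, the 100 bases before the annotated start, 5′ to 3′ on the gene's strand. The first 3 have capitals on E2F words, searched as TTTCCCGC, TTTGGCGC, TTTCGCGC and TTTGCCGC on both strands. Other words are left in lower case. They are E2F2 at chr1:23531234-23531333 (minus strand), E2F1 at chr20:33686386-33686485 (minus strand) and UHRF1 at chr19:4909401-4909500 (plus strand).
E2F2: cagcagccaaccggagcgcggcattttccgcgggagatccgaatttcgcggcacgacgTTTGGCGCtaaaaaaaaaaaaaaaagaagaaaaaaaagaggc
E2F1: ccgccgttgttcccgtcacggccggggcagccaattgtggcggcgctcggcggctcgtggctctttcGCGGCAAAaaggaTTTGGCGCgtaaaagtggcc
UHRF1: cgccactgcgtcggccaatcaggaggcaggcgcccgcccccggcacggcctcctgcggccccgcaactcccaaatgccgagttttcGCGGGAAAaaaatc
The next 3, from mitotic genes, have capitals on a CCAAT box (CCAAT) and on a CHR word (cell cycle genes homology region, TTTGAA or TTCGAA), both strands. They are ESPL1 at chr12:53268199-53268298 (plus strand), ZWINT at chr10:56361260-56361359 (minus strand) and PLK1 at chr16:23678789-23678888 (plus strand), with log2 fold changes of -2.41, -1.68 and -1.72 for the mean of both mixes.
ESPL1: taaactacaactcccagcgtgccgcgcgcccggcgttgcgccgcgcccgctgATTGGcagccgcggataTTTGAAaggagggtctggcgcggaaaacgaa
ZWINT: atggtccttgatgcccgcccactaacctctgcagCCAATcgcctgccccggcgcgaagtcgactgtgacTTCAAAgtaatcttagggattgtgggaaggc
PLK1: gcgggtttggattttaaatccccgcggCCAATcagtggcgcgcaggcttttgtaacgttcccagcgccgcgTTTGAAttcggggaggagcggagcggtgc
In the 250 bases before the start, an E2F word stood in 14 of 52 matched DNA replication promoters (26.9%), against 4.53% of the 10777 matched promoters of all tested genes (2.79% of the 27305 promoters in the table). A CHR word stood in 26 of 45 matched mitosis promoters (57.8%) against 9.72% of tested genes (14.6% in the table), and a CCAAT box in 34 (75.6%) against 35.3% (33.0%). Of 31 matched histone promoters 26 (83.9%) held a CCAAT box and 9 (29.0%) an E2F word. In the G1/S and E2F list an E2F word stood in 6 of 27 matched promoters (22.2%). Of the 635 genes lower at least 2-fold in all 4 comparisons, 490 were matched. Of these promoters 10.8% held an E2F word and 16.9% a CHR word. In the recombination and checkpoint list an E2F word stood in 1 of its 28 matched promoters (3.57%) and a CHR word in 3 (10.7%), both near the share of tested genes. Mitosis promoters held an E2F word in 2 of 45 cases (4.44%), and replication promoters a CHR word in 2 of 52 (3.85%). CCAAT, E2F and CHR words do not overlap in the printed promoters. A match is a description of letters and not of a bound site.

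The largest rises were of varied function. PLAT encodes tissue plasminogen activator, the protease that cuts plasminogen to plasmin. PLAT read 141 and 148 with control siRNA, 3171 and 3404 with mix A, and 717 and 707 with mix B, which is 22.7-fold and 4.92-fold, so the mixes differed in size by 2.20 (adjusted p = 3.99e-17, limma). NEAT1, the noncoding RNA that builds nuclear paraspeckles, read 48.9 and 56 in controls, 419 and 242 in mix A and 735 and 612 in mix B. Its mix A libraries were unequal, yet the lower one was still above both controls. NDRG1, a stress- and hypoxia-responsive gene linked to growth arrest, read 55 and 55 in controls, 291 and 303 in mix A and 522 and 493 in mix B, and DMSO libraries 26.4 and 25.5. MXD4, whose product pairs with MAX at the sites MYC uses and represses them, read 28.5 and 36.3 in controls, 178 and 164 in mix A and 205 and 207 in mix B. NDRG1 and MXD4 were lower in DMSO than in control siRNA, so their rises were larger against DMSO, at 3.85 and 3.18. KDR, the VEGF receptor VEGFR2, read 3.94 and 4.45 in controls, 40.3 and 39.7 in mix A and 24.3 and 25.5 in mix B. G0S2, an inhibitor of the triglyceride lipase ATGL, read 22.1 and 25.8 in controls, 202 and 221 in mix A and 112 and 118 in mix B, but 102 and 98 with DMSO. For G0S2 the rise of 2.66 over control siRNA was therefore only 0.64 over DMSO.

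IDUA, the lysosomal enzyme iduronidase, rose from 1.71 and 2.29 to 15.4 and 10.2 in mix A and 16 and 16.9 in mix B. KRCC1, TMEM255B and ACRC rose by 2.25, 2.21 and 2.41 with differences between mixes of -0.060, 0.11 and 0.26. ARHGAP5-AS1 read 6.34 and 7.04 in controls, 43.7 and 42.7 in mix A and 58.9 and 51.1 in mix B, and DNMBP-AS1 0.959 and 1.02 in controls, 10.4 and 9.79 in mix A and 12.3 and 11.4 in mix B. Both are antisense to coding genes, and how strand was treated in counting was not given in the sources used here, so reads of the partner gene cannot be told apart from theirs. Among the falls outside the cell cycle, ACO1, the cytosolic aconitase that also acts as an iron regulatory protein, read 202 and 198 in controls, 20.7 and 19.7 in mix A, 19 and 16.8 in mix B and 186 and 169.9 with DMSO. ACO1 was among the most even falls across mixes and controls. LAPTM5 read 61.1 and 61.1 in controls, 5.78 and 5.98 in mix A, 3.10 and 4.52 in mix B and 14.5 and 14.7 in DMSO, and DMBT1 15.3 and 15.9 in controls, 0.664 and 1.23 in mix A, 0.714 and 0.767 in mix B and 1.52 and 1.93 in DMSO. For LAPTM5 and DMBT1 the DMSO level lay between control siRNA and BRD siRNA, so their changes of -3.44 and -3.18 against control siRNA were -1.45 and -0.57 against DMSO. MISP, an actin-bundling protein of the mitotic spindle cortex, fell from 10.7 and 11.8 to 0.298 to 0.616.

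**Figure D2:**
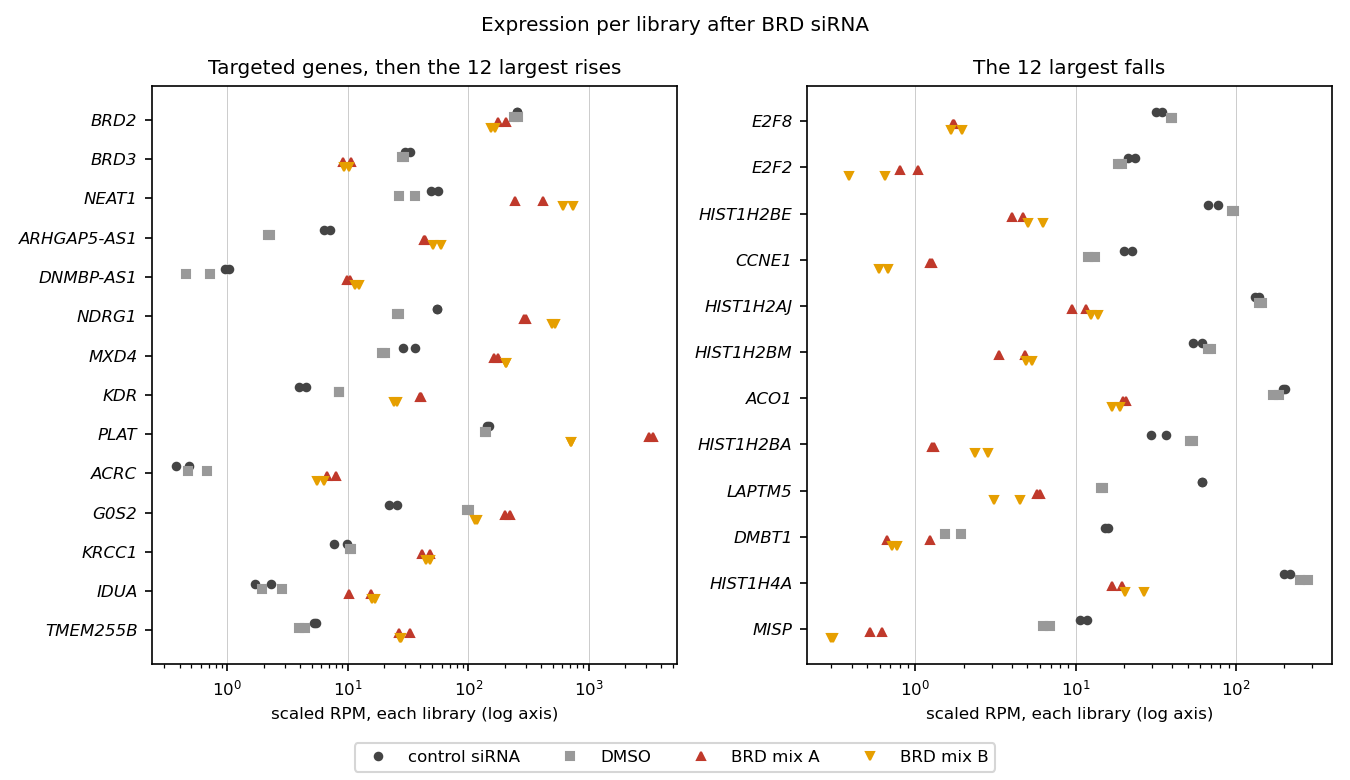
Scaled RPM of each library on a log axis for the targeted genes BRD2 and BRD3 and the 12 largest rises (left) and the 12 largest falls (right), 2 points per group. BRD libraries (triangles) lie to one side of control siRNA (circles) and DMSO (squares) in every gene drawn. Over all tested genes they lay above in 26.4% and below in 26.2%. LAPTM5 and DMBT1 have DMSO points away from control siRNA, and DMSO G0S2 libraries, at 102 and 98, lie just below mix B.

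Of 39 genes of pause release and elongation, 20 were higher in each mix and 6 lower (all tested genes: 27.8% and 27.1%). Against both controls 15 and 5 held (all tested genes: 22.2% and 22%). The median was 0.26, but 0.032 against DMSO and 0.14 with equal column totals. HEXIM1, the inhibitor of P-TEFb and a gene known to respond to BET inhibitors, read 53.2 and 58.4 in controls, 157 and 171 in mix A and 113 and 114 in mix B, with 71 and 80.4 in DMSO. CDK9, the P-TEFb kinase, rose by 0.59, its cyclin CCNT2 by 0.61, and AFF4, the scaffold of the super elongation complex, from 129 and 120.3 to 222 to 255. LARP7, which stabilises the 7SK RNA that holds P-TEFb inactive, fell (-0.73), as did the elongation factors ELL2 (-0.52) and EAF2 (-0.83). In the list of BET inhibitor response genes 9 of 18 were lower in each mix and 5 higher (all tested genes: 27.1% and 27.8%). BCL2 (-2.33) and MYB (-1.41) were among the falls. MYC read 98.3 and 97.7 in controls, 80.3 and 90.7 in mix A, 141 and 135 in mix B and 152 and 155 in DMSO. The mixes moved MYC in opposite directions (-0.20, adjusted p = 0.00607, and 0.49, adjusted p = 3.45e-07, limma), and both were below DMSO.

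Ribosome biogenesis genes and MYC targets were lower in 33 of 50 cases and higher in 1 (all tested genes: 27.1% and 27.8%). The 33 falls held against both controls (all tested genes: 22%), with a median of -0.38 against control siRNA and -0.94 against DMSO. DKC1, the pseudouridine synthase of box H/ACA particles, read 214 and 198 in controls, 70.6 and 75.9 in mix A and 105 and 105 in mix B. POLR1E, a subunit of RNA polymerase I, read 88.9 and 79 in controls, 24.7 and 28.6 in mix A and 35.4 and 37.5 in mix B. Both genes fell further in mix A than in mix B. The nucleolar methyltransferase gene FBL fell by 0.78, while NCL (0.14) and NOLC1 (-0.080) were not called in each mix. Cytosolic ribosomal protein genes moved little: 8 of 47 were higher and 2 lower in each mix, both under the share over all genes, and of these the 2 falls held against both controls. RPL14 was the largest fall at -0.65, and RPL13, RPLP1 and RPL36 stood at 0.67, 0.69 and 0.51 against control siRNA but at 0.15, 0.068 and -0.076 against DMSO. The median of the ribosomal list was 0.042 against control siRNA and -0.48 against DMSO, and it turned to -0.17 with quantile scaling and -0.085 with equal column totals, so its sign was not stable.

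YAP/TAZ target genes did not move as one group. Of 32 tested, 12 were higher in each mix and 9 lower (all tested genes: 27.8% and 27.1%). The median was 0.15, and -0.37 against DMSO. Against both controls 7 and 8 held, near the shares over all tested genes (22.2% and 22%). NT5E, the ectoenzyme CD73, read 471 and 451 in controls, 2185 and 2336 in mix A, 1671 and 1608 in mix B and 544 and 508 in DMSO, the largest rise of the list. CTGF, a matricellular protein, read 201 and 184 in controls, 292 and 317 in mix A, 879 and 880.1 in mix B and 415 and 393 in DMSO. The mix A libraries of CTGF were thus above control siRNA and below DMSO, and mix B was above both. CYR61 read 229 and 213 in controls, 210.1 and 219 in mix A, 433 and 441 in mix B and 374 and 378 in DMSO, with no call in mix A (adjusted p = 0.507, limma). ANKRD1, a nuclear ankyrin repeat protein, read 441 and 403 in controls, 643 and 749 in mix A, 815 and 875 in mix B and 934 and 899.8 in DMSO, above control siRNA in 4 of 4 BRD libraries and below DMSO in 4 of 4. CTGF, CYR61 and ANKRD1 differed between the controls by 1.06, 0.77 and 1.12. Falls against both controls were found in BIRC5 (-1.27), the apoptosis inhibitor survivin, which also peaks in mitosis, TGFB2 (-0.98), INHBA (-1.05) and THBS1 (-0.60). Among 16 AP-1 factors 5 rose and 3 fell in each mix and against both controls (all tested genes: 22.2% and 22%). JUNB read 23.7 and 27.7 in controls, 59 and 52 in mix A and 87 and 89.2 in mix B, and FOSL1, the FRA-1 subunit, 66 and 80.7 in controls, 195 and 184 in mix A and 97 and 95.5 in mix B. JUNB and FOSL1 rose while their relative FOSL2 fell from 120.0 and 120.4 to 39.2 to 52.2, and JUN stood at 0.12 with no call in each mix.

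**Figure D3:**
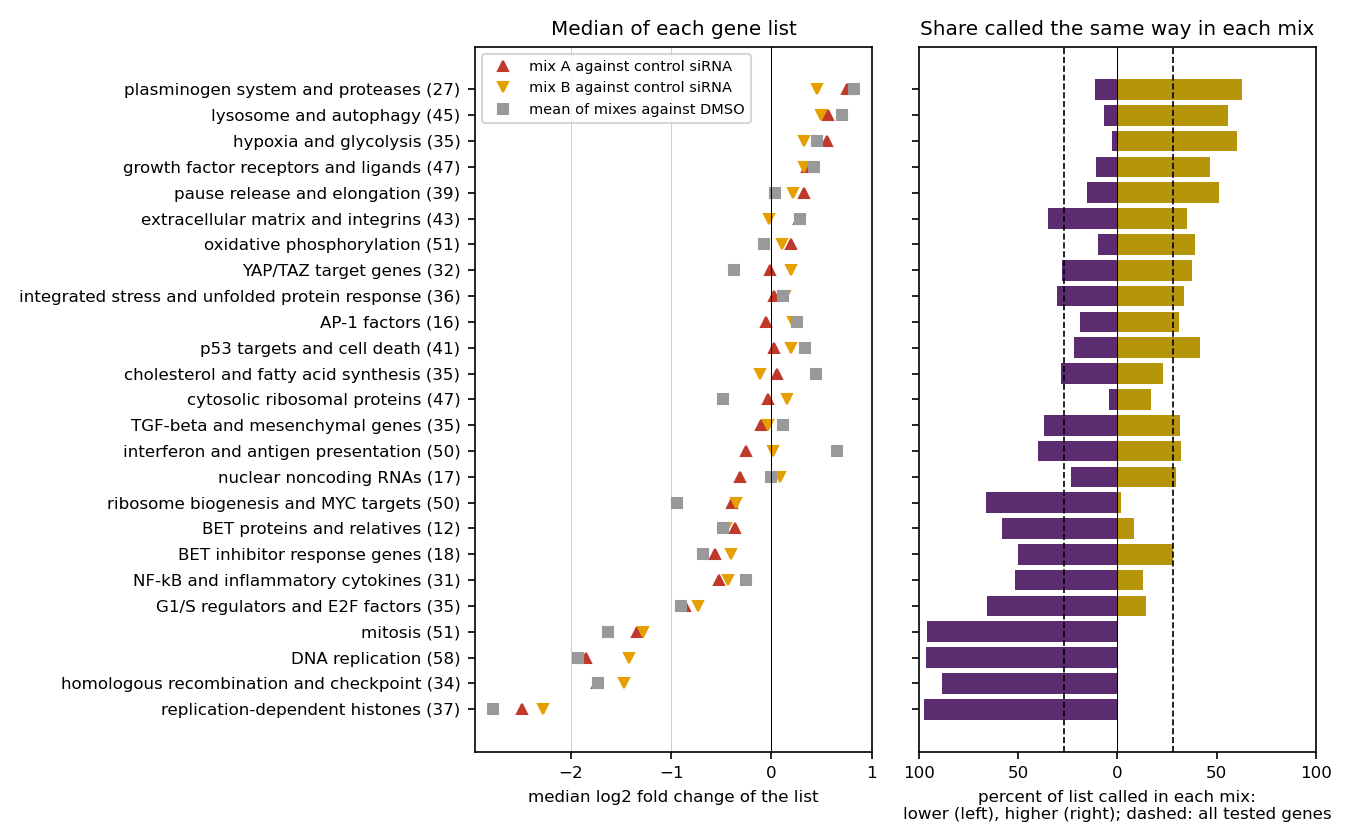
Left, the median log2 fold change of each gene list (number tested in brackets) for mix A, mix B and the mean of both mixes against DMSO. Right, the percent of each list called in each mix in the same direction, with dashed lines at the shares over all tested genes (27.8% higher, 27.1% lower). The 4 lists at the bottom lie at or below -1.31 for the mean of both mixes, and the interferon, YAP/TAZ and ribosomal lists have DMSO points far from the mix points.

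Plasminogen system and protease genes had a median of 0.63 for the mean of both mixes (0.75 in mix A and 0.46 in mix B). Of 27 genes, 17 were higher in each mix and 3 lower (all tested genes: 27.8% and 27.1%). Against both controls 12 and 3 held (all tested genes: 22.2% and 22%). Beside PLAT, MMP1, the interstitial collagenase, read 4.37 and 4.94 in controls, 13.1 and 14.3 in mix A, 49.6 and 49.1 in mix B and 9.53 and 8.92 in DMSO. MMP1 rose more in mix B, the reverse of PLAT. MMP15 (1.73), TIMP1 (1.11), CTSL (0.78) and MMP14 (0.87) also rose. The falls were ADAM9, a membrane sheddase, from 479 and 452 to 114 to 138, the inhibitor TIMP4 from 8.37 and 9.09 to 0.298 to 0.710, and PLAU, the urokinase gene, at -1.18. The plasminogen activators PLAT and PLAU therefore moved in opposite directions.

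Matrix and adhesion genes were called as often up as down. Of 43, 15 were higher and 15 lower in each mix (all tested genes: 27.8% and 27.1%). Against both controls 14 and 6 held (all tested genes: 22.2% and 22%). Integrin subunits and laminins were among the rises. ITGA2, a collagen receptor subunit, read 545 and 509 in controls, 2044 and 1907 in mix A and 1735 and 1545 in mix B. ITGA3, a laminin receptor subunit, read 695 and 765 in controls, 1997 and 1899 in mix A and 2342 and 2314 in mix B, and LOXL2, which crosslinks collagen, 180.1 and 201 in controls, 594 and 617 in mix A and 541 and 535 in mix B. With them rose ITGA1 (1.60), LAMA5 (1.34), PLOD2 (1.26) and LAMC1 (1.00). HAS2, the main hyaluronan synthase, read 64.4 and 58.5 in controls and 5.36 to 8.27 in the BRD libraries, a fall of 10.8-fold in mix A and 7.49-fold in mix B. VCAN (-2.14), a proteoglycan that binds hyaluronan, COL6A3 (-2.17) and TNC (-1.03) fell as well. The basement membrane collagen genes COL4A1 (-0.86) and COL4A2 (-0.72) fell against control siRNA and were not called in each mix against DMSO (-0.18 and -0.23 for the mean of both mixes).

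Of 47 growth factor receptors, ligands and feedback regulators, 22 rose in each mix and 5 fell (all tested genes: 27.8% and 27.1%). Against both controls 18 and 4 held (all tested genes: 22.2% and 22%). The median was 0.31 (0.20 with equal column totals). EPHA2 read 356 and 379 in controls, 1126 and 1129.8 in mix A and 694 and 683 in mix B. DUSP6, the phosphatase that turns off ERK, read 408 and 407 in controls, 879 and 949 in mix A and 1076 and 1088 in mix B, and DUSP4 and DUSP5 rose by 0.95 and 0.93. EPHA2 was higher in mix A and DUSP6 in mix B. The TAM receptor MERTK (1.54) and its ligand GAS6 (1.43) rose, whereas the related receptor TYRO3 (-1.30) fell and AXL (0.31) was not called in each mix. NRG1, the ligand of ERBB3 and ERBB4, fell from 82.7 and 84.4 to 19.1 to 23.3. EGFR stood at 0.61, FGFR1 at 0.76 and IGF1R at 0.64, all called in each mix against both controls.

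Lysosome and autophagy genes rose in 25 of 45 cases and fell in 3 (all tested genes: 27.8% and 27.1%). The median was 0.52 (0.71 against DMSO), and 23 rises held against both controls (all tested genes: 22.2%). The largest change of the list was a fall, LAPTM5 at -3.44 (-1.45 against DMSO), the 1 fall that held against both controls. SGSH, the lysosomal sulfamidase, read 7.41 and 7.58 in controls, 43.7 and 42.2 in mix A, 35.7 and 36.8 in mix B and 14 and 14.2 in DMSO. SQSTM1, the autophagy receptor p62, read 195 and 225 in controls, 537 and 531 in mix A, 1540.1 and 1528 in mix B and 192 and 193 in DMSO. IDS, the iduronate sulfatase, rose from 149.6 and 147 to 294 to 347. SGSH rose evenly, while SQSTM1 differed between mixes by -1.52. The lysosomal glycosidases MANBA (1.25), NAGLU (1.09) and GLB1 (1.06) rose, as did the proton pump subunit ATP6V1A (1.35), the autophagosome protein gene MAP1LC3B (1.36), the initiating kinase ULK1 (1.27) and the transcription factor TFE3 (0.85). TFEB (-0.22) and HEXA (0.24) were not called in each mix, and LAMP1 was called in opposite directions (-0.38 in mix A and 0.57 in mix B). Hypoxia and glycolysis genes rose in 21 of 35 cases (all tested genes: 27.8%) and fell in 1 (CA12, -0.83). Against both controls 19 rises held (all tested genes: 22.2%), and the list had a median of 0.38. That median was 0.16 with quantile scaling and 0.25 with equal column totals. BNIP3, a mitophagy receptor, read 144 and 139 in controls, 432 and 475 in mix A and 297 and 296 in mix B, and PFKL, the liver-type phosphofructokinase, 61.8 and 65.8 in controls, 146 and 139.8 in mix A and 117 and 118 in mix B. LDHA (0.64), ENO1 (0.61) and GAPDH (0.60) rose, but the glucose transporter SLC2A1 was called in opposite directions (0.25 in mix A and -0.64 in mix B), and CA9 (-0.27) was not called in each mix. ADM read 39.8 and 37.6 in controls, 93.6 and 103 in mix A, 147 and 152 in mix B and 95.1 and 91.8 in DMSO, so mix A was near DMSO.

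Inflammatory cytokines and NF-kB genes were lower in 16 of 31 cases and higher in 4 (all tested genes: 27.1% and 27.8%). The median was -0.54 (-0.29 with a pseudocount of 4). Against both controls 9 and 4 held, with the falls not far from the share over all tested genes (22% lower and 22.2% higher). The median against DMSO was -0.25. CSF2, the cytokine GM-CSF, read 8.26 and 8.19 in controls, 0.187 to 0.379 in BRD libraries and 1.46 and 1.68 in DMSO. BIRC3, an inhibitor of apoptosis, read 62.7 and 62.8 in controls, 15.5 to 17.9 in BRD libraries and 27.7 and 24.7 in DMSO. CSF2 and BIRC3 were thus already lower in DMSO than in control siRNA. CSF1, the macrophage growth factor, rose from 152 and 177 to 517 to 674, with 45.5 and 48 in DMSO, and the inhibitor NFKBIA rose by 1.11. IL6 (-1.16), CXCL8 (-0.66) and RELB (-0.88) fell against control siRNA and did not pass in each mix against DMSO, where the mean of both mixes stood at -0.21, -0.092 and -0.40.

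Calls of interferon and antigen presentation genes depended on the control. Against control siRNA 16 of 50 were higher in each mix and 20 lower (all tested genes: 27.8% and 27.1%), with a median of -0.12. All 16 rises but only 5 falls held against both controls (all tested genes: 22.2% and 22%). The median against DMSO was 0.65. Without control siRNA replicate 1 or 2 the median against control siRNA was -0.19 or -0.20. The list was lower in DMSO than in control siRNA by a median of -0.70. OAS3, which makes the activator of RNase L, read 35.4 and 31.3 in controls, 1.56 and 1.68 in mix A, 4.29 and 4.90 in mix B and 17.5 and 17.6 in DMSO, the largest fall of the list. IFIT2 read 31.3 and 29.5 in controls, 60.1 and 65.7 in mix A, 115 and 117 in mix B and 25.4 and 27.4 in DMSO. IFIT2, together with B2M (0.78) and IRF7 (1.21), rose against both controls. XAF1, IFI44L and OAS2 fell against control siRNA (-1.52, -1.11 and -1.12) and stood at 0.10, -0.27 and 0.28 against DMSO.

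Other pathways were mixed. Over all tested genes 27.8% rose and 27.1% fell in each mix, and 22.2% and 22% did so against both controls. In the integrated stress and unfolded protein response list, 12 of 36 rose in each mix and 11 fell, and 11 and 8 held against both controls. EDEM1, which sends misfolded glycoproteins to degradation, read 60.9 and 58.6 in controls, 232 and 242 in mix A and 171 and 167 in mix B, and HERPUD1 (0.72), DNAJB9 (0.69) and HSPA5 (0.39) also rose. TRIB3, a pseudokinase induced by ATF4, fell from 25.7 and 31.1 to 4.41 and 3.51 in mix A and 8.71 and 8.48 in mix B, with the serine synthesis genes PHGDH (-1.22) and PSAT1 (-1.04) and with ATF4 (-0.27). Among 41 p53 targets and cell death genes 17 rose and 9 fell. XPC (1.38), TP53INP1 (1.36), BCL2L1 (0.97) and MCL1 (0.68) rose, and BCL2 fell from 14.9 and 13.4 to 1.20 to 2.90, with DDB2 (-1.65), AEN (-1.23) and MDM2 (-1.15). Survival and p53 target genes thus stood on both sides. In the TGF-beta and mesenchymal list 11 of 35 rose and 13 fell. FSTL1 read 355 and 334 in controls, 149 and 165 in mix A and 66.8 and 74.9 in mix B, and ID3, a target of BMP signals, 19.5 and 24.2 in controls, 4.31 and 4.45 in mix A and 7.89 and 9.21 in mix B. The ligand TGFB1 (0.77) and receptor TGFBR1 (0.66) rose, while the signal transducers SMAD2 (-0.53) and SMAD4 (-0.61) fell.

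In cholesterol and fatty acid synthesis 8 of 35 rose and 10 fell in each mix, near the shares over all tested genes (27.8% and 27.1%). FADS1 stood at -1.08, MVK at -0.92 and INSIG1 at 0.66 against control siRNA but 2.95 against DMSO. Oxidative phosphorylation genes rose in 20 of 51 cases and fell in 5, and 10 and 5 held against both controls (all tested genes: 22.2% and 22%). The exception in size was NDUFS3, a core subunit of complex I, which read 51.2 and 56.7 in controls, 12.8 and 12.3 in mix A, 14 and 13.3 in mix B and 63 and 63.2 in DMSO. Other subunits of the complex, NDUFA8 (0.81) and NDUFA2 (0.79), rose. Among 17 nuclear noncoding RNAs 5 rose and 4 fell in each mix, near the shares over all tested genes (27.8% and 27.1%). MALAT1 (1.23) rose with NEAT1, and MIR17HG, the host of the miR-17-92 cluster, fell from 53.7 and 47.4 to 12.9 to 25.7. SNHG1 (-0.89) and PVT1 (-0.38) fell too. OIP5-AS1 (0.55) is antisense to a coding gene, and its count is uncertain without the strand setting.

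Markers were used to check the cells. VIM, the mesenchymal intermediate filament typical of this line, read 3323 and 3514 in controls and 2894 to 3497 in BRD libraries. EPCAM, an epithelial adhesion molecule, read 15.7 and 14.6 in controls and 4.05 to 5.64 after BRD siRNA. Of 17 luminal markers tested, of 20 written, 4 rose in each mix and 8 fell (all tested genes: 27.8% and 27.1%). Against both controls 4 and 3 held (all tested genes: 22.2% and 22%). The list was lower in DMSO than in control siRNA by a median of -0.40. KRT7 read 179.6 and 196 in controls, 48.6 and 48.2 in mix A and 66.7 and 79.1 in mix B. The transcription factor SPDEF read 24.9 and 24.4 in controls, 7.40 and 6.65 in mix A and 3.95 and 4.30 in mix B. Both fell, while KRT8 (0.14) and KRT18 (-0.016) were not called in each mix. Other luminal markers rose, and the highest change of the list was 1.29 for the mean of both mixes. Summed, the 17 luminal markers read 1631 and 1713 in controls, 1413 and 1478 in mix A and 1692 and 1782 in mix B. Of 15 leukocyte markers 5 were tested, and their summed level was 68.1 and 70.4 in controls, 39.0 to 43.8 in BRD libraries and 71.3 and 72.2 in DMSO. The sum was mostly CD68 (control 60.4 and 61.3), a lysosomal glycoprotein, and CD8A, CD14 and ITGAX read 0.262 to 1.08, 0.693 to 1.35 and 0.523 to 0.901, close to 0. Of 15 fibroblast and endothelial markers 5 were tested, and their sum was 14.7 and 18.9 in controls and 33.6 to 53.8 in BRD libraries. The sum followed KDR, as ACTA2 and PECAM1 stayed at 0.521 to 1.58 and 0.852 to 2.39.

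The 2 mixes differed from each other in many genes: 25.7% of all tested genes were higher in mix A than in mix B and 24.3% were lower (limma). Opposite calls were fewer. In mix A 316 genes (2.31%) were higher than control siRNA while lower in mix B, and 239 (1.75%) the reverse. ARPC1B read 86 and 91.4 with control siRNA, 179.9 and 200.3 with mix A, and 30.2 and 32.7 with mix B. PRNP read 411 and 382 with control siRNA, 947 and 1087 with mix A, and 212 and 212 with mix B. ARPC1B, a subunit of the actin-nucleating Arp2/3 complex, and PRNP, the prion protein gene, were above controls in both mix A libraries and below them in both mix B libraries. P2RY2, a receptor for extracellular nucleotides, and SIGIRR, a brake on interleukin-1 signals, did the same (1.08 and -1.11; 1.22 and -0.92). SESN3, a stress-responsive sestrin, went the other way, with 7.99 and 8.49 in controls, 4.12 and 4.11 in mix A and 35.5 and 36.1 in mix B. KCTD12 read 65.7 and 52.5 in controls, 19.5 and 18.3 in mix A and 110.5 and 109.8 in mix B, and MBLAC2 and GNPNAT1 showed the same order (-1.36 and 0.91; -0.93 and 0.87). The mean of both mixes is not given for these genes, since it averages opposite changes.

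The controls also differed, with 28.7% of tested genes higher in DMSO than in control siRNA and 25.4% lower. The direction turned for 65 genes (0.475%) that were above control siRNA and below DMSO in each mix, and for 61 (0.446%) the reverse. CD44, the hyaluronan receptor, read 162 and 146 with control siRNA, 232 and 265 in mix A, 238 and 249 in mix B and 359 and 343 in DMSO. SMIM15 read 32.9 and 28.9 in controls, 71.2 and 84.2 in mix A, 74.9 and 70.5 in mix B and 149 and 132 in DMSO, and NOV, a relative of CTGF, 3.09 and 3.79 in controls, 9.58 and 10.8 in mix A, 6.06 and 6.90 in mix B and 15.3 and 13.9 in DMSO. In CD44, SMIM15 and NOV all 4 BRD libraries lay between the controls. WAC-AS1 did so too (0.66 and -0.57), with the limit on antisense genes. AGR2, a disulfide isomerase of secretory epithelium, lay between them from the other side, with 30.4 and 33.6 in controls, 10.2 and 11 in mix A, 17.6 and 19.3 in mix B and 5.51 and 5.08 in DMSO. GBP4, an interferon-induced GTPase, RAB37 and LIPG changed by -1.14, -1.13 and -0.94 against control siRNA and by 1.08, 1.56 and 0.94 against DMSO.

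**Figure D4:**
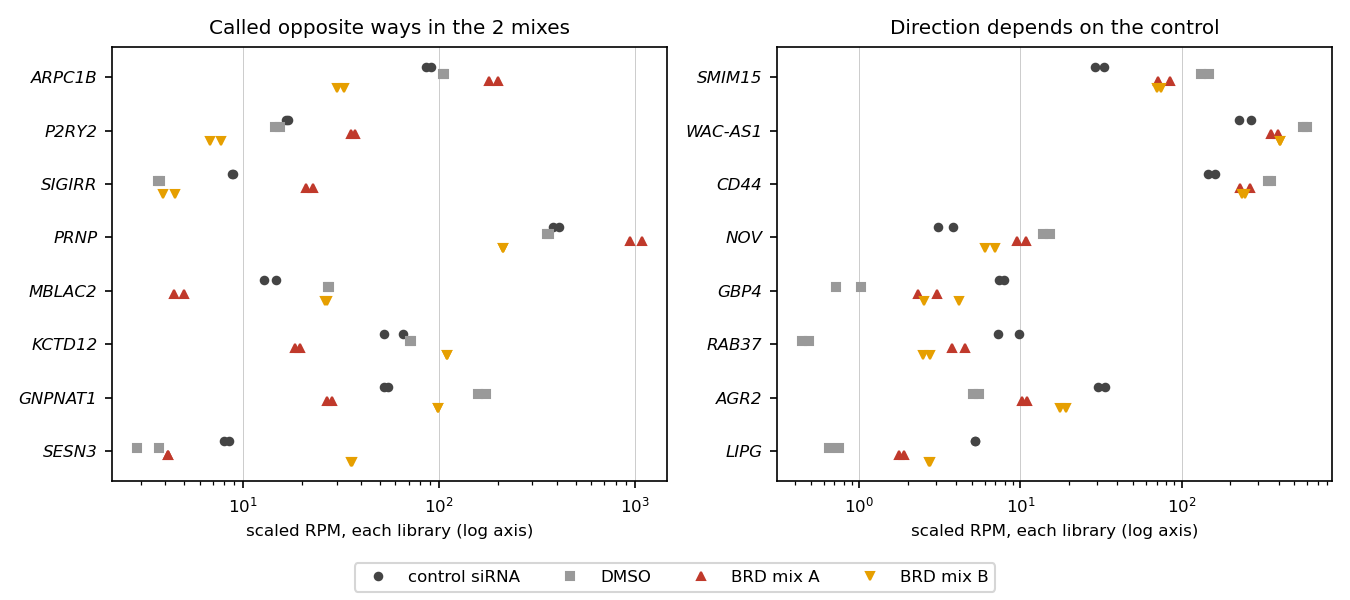
Scaled RPM of each library on a log axis, 2 points per group. Left, genes called opposite ways in the mixes, where mix A (upward triangles) and mix B (downward triangles) flank control siRNA (circles). Right, genes whose direction depends on the control, where BRD libraries lie between control siRNA and DMSO (squares), as for CD44 at 162 and 146 and 359 and 343.

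JQ1, a compound that blocks the acetyl-lysine pocket of BET proteins, was given at 1 µM for 24 h in 2 further libraries of the series, so the times differ from the 72 h of siRNA. Of the 7515 genes called the same way in each mix, 5250 were called that way by JQ1 against DMSO, which is 38.4% of all tested genes. They were 69.9% of the siRNA genes and 52.0% of the 10104 JQ1 calls. Another 893 (6.53% of all tested genes) were called the opposite way, 11.9% of the siRNA genes and 8.84% of the JQ1 calls. The difference between both effects, tested with separate controls, was called in 30.2% of all genes upward and 29.9% downward. JQ1 medians were below 0 in the cell cycle lists too, at -1.53 for replication, -2.41 for mitosis and -2.43 for histones. CCNE1 fell in both but less with JQ1, at -3.53 ± 0.10 with siRNA and -0.86 ± 0.12 with JQ1 (difference adjusted p = 1.32e-11, limma).

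Named genes that siRNA lowered and JQ1 raised included the targeted genes themselves. BRD2 read 241 and 257 in DMSO and 919 and 955 with JQ1, a rise of 1.91, and BRD3 read 28 and 29 in DMSO and 35.2 and 34.4 with JQ1. ACO1 was at -3.33 with siRNA and 0.37 with JQ1, ADAM9 at -1.88 and 0.20, and TIMP4 at -2.76 and 0.50. ASNS, the asparagine synthetase, read 58.2 and 51.4 with control siRNA, 24.8 to 44 with BRD siRNA, 50.2 and 50.6 with DMSO and 324 and 328 with JQ1. In these genes the siRNA and the inhibitor therefore stood on opposite sides of their own controls. ID3 showed -1.66 and 1.08, and TPPP -0.48 (0.12 against DMSO) and 3.29, although TPPP was at 0.162 to 1.08 in the control, DMSO and BRD libraries. In the reverse order, SLCO4A1, an organic anion transporter, read 115 and 129 with control siRNA, 244 to 396 with BRD siRNA, 51 and 53.5 with DMSO and 6.78 and 4.67 with JQ1. CSF1 stood at 1.87 and -0.48, and FOSL1 at 0.88 and -0.80. NT5E, ITGA2 and KDR rose with siRNA by 2.06, 1.77 and 2.65 and stood at -0.10, 0.18 and 0.46 with JQ1. EFR3B rose in both, by 0.95 and 5.10. LOC100127888, DNMBP-AS1 and LINC00452 rose with siRNA and stood at -2.05, -0.072 and -0.70 with JQ1.

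**Figure D5:**
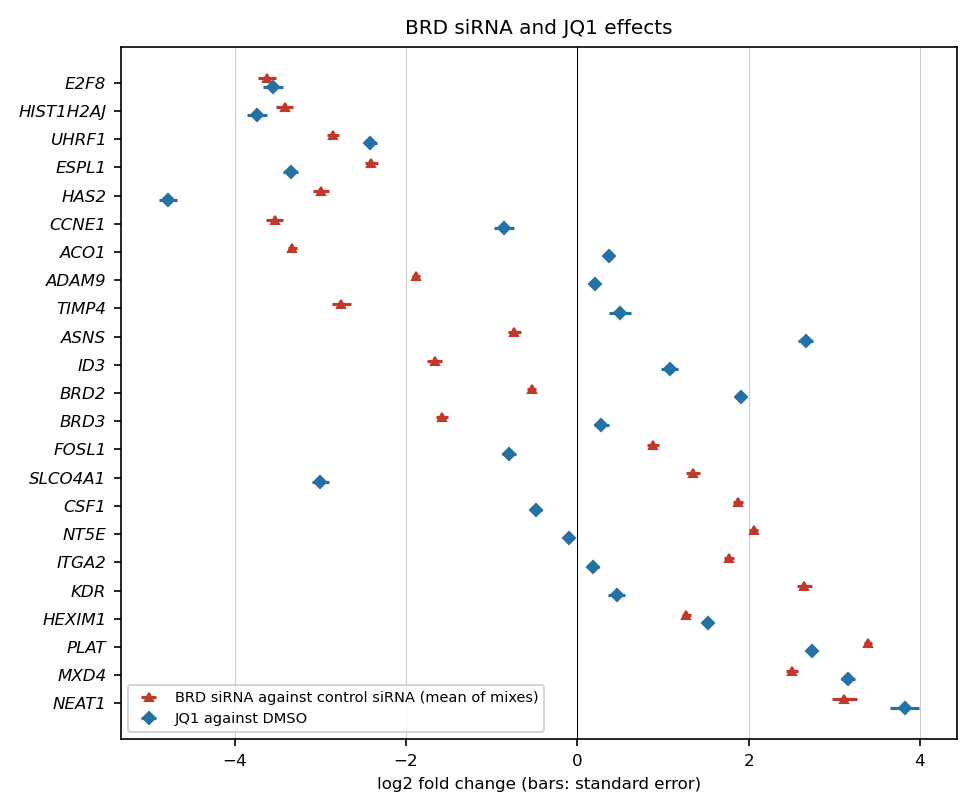
Log2 fold change with its standard error for BRD siRNA against control siRNA (mean of both mixes, triangles, n = 4 against 2 libraries) and for JQ1 against DMSO (diamonds, n = 2 against 2). The genes were chosen from those named in the text after their values were seen. E2F8, MXD4 and NEAT1 have both symbols far on one side, while ACO1, ASNS, BRD2 and SLCO4A1 have them on opposite sides of 0.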

How the data were processed

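Per the submitters' processing notes the tools were HTSeq 0.6.0, TopHat2 2.0.5, CASAVA 1.8.4, R 3.0.0 and edgeR, with build hg19 and no roles named. Annotation and strand setting were not given in the sources used here. Stranded total RNA libraries were depleted of ribosomal RNA, per the labels' protocols. The table holds 13734 genes. The deposited values are a scaled signal: columns summed to 903627 to 1098052, and every value was a whole multiple of 1 read (100%, tolerance 0.01), so depths could be recovered. The plan had assumed CPM.

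limma 3.58.1 (R 4.3.3) was fitted to log2(value + 1) of all 14 libraries in 7 groups with trended variances (7 residual degrees of freedom), on 13674 genes (filter: 1 or more in 2 or more libraries). The groups include JQ1 and YAP/TAZ siRNA mixes 1 and 2, with 2 libraries each, so their spread enters every p-value. Tests were two-sided at an adjusted p of 0.05. Scripts were tested on simulated data. Replicates differed by more than counting noise in each group, most in mix A (chi-square per gene 10.6, against 3.44 to 4.94 in the other groups). The members and the 28 lists were chosen with earlier results of these data known. Named genes were the targeted genes, 8 fixed genes, the 12 largest rises and falls (by the smaller of the mixes' changes, mean at least 5), up to 4 per list by moderated statistic, and 4 each way for opposite mixes, opposite controls and JQ1 differences. Other genes in the text are list members, chosen after their values were seen, and some genes under the rule are not reported here. Alternatives were other pseudocounts, filters, scalings, samples, blocks, edgeR 4.0.16 and DESeq2 1.42.0 on recovered reads, and DMSO as the control. Promoters came from RefSeq.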

Additional observations from a re-analysis of the deposited data

Results flagged for a closer look

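Several named genes changed in opposite directions in the 2 siRNA mixes, and the test of the difference (mix A minus mix B, limma) passed for each. The values were 2.56 for ARPC1B, 2.25 for PRNP, 2.19 for P2RY2, 2.14 for SIGIRR, -0.69 for MYC, -1.81 for GNPNAT1, -2.27 for MBLAC2, -2.48 for KCTD12 and -2.85 for SESN3.

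Another 21 named genes were called one way with BRD siRNA and the other way with JQ1, and the difference of the effects (JQ1 minus BRD siRNA, limma) passed for each. Positive differences were 3.77 for TPPP, 3.70 for ACO1, 3.41 for ASNS, 3.25 for TIMP4, 2.74 for ID3, 2.65 for AGR2, 2.44 for BRD2, 2.26 for JDP2, 2.09 for ADAM9, 1.86 for BRD3, 1.22 for PSAT1 and 0.91 for CD68. Negative differences were -4.36 for SLCO4A1, -3.63 for LOC100127888, -2.60 for LINC00452, -2.46 for SMIM15, -2.35 for CSF1, -1.68 for FOSL1, -1.48 for CD44, -1.34 for WAC-AS1 and -1.01 for OIP5-AS1. JDP2, an AP-1 repressor, fell from 4.85 and 4.88 to 0.987 to 1.20 with siRNA and read 4.86 and 5.14 in DMSO and 9.11 and 9.52 with JQ1. Times and controls differ between both arms. Against DMSO, the control of JQ1, BRD siRNA moved AGR2 (1.25), SMIM15 (-0.89), CD44 (-0.51) and WAC-AS1 (-0.57) the same way as JQ1, so their opposite calls depend on the control, and TPPP stood at 0.12 with no call.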

How the results depend on the processing

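Of 145 named genes, 135 kept their direction and call under every setting tried other than DMSO as the control. With DMSO as the control, 13 changed sign: MYC -0.50, CYR61 -0.29, ANKRD1 -0.26, RPL36 -0.076, SMIM15 -0.89, WAC-AS1 -0.57, CD44 -0.51, NOV -0.77, AGR2 1.25, GBP4 1.08, RAB37 1.56, LIPG 0.94 and TPPP 0.12. Of these, RPL36 and TPPP were not called against DMSO, so they lost their call. Counts of 2-fold genes in each mix against control siRNA were 286 higher and 516 lower with a pseudocount of 4, 695 and 1257 with edgeR, and 1249 lower with DESeq2, on recovered reads. Against both controls they were 216 higher with a pseudocount of 4, 541 higher and 953 lower with edgeR, and 963 lower with DESeq2. A larger pseudocount shrinks changes of low genes by construction. With equal column totals, DMSO exceeded control siRNA in 2571 genes, and the mean of both mixes gave 4196 higher and 6097 lower. With both mixes as 1 group of 4, DMSO against control siRNA gave 2259 and 1990, and JQ1 minus BRD siRNA 2580 and 2649, since mix differences then enter the spread. Replicate numbers are shared between groups, but the labels do not say that they mark a batch, and their pairing was not borne out (correlations of deviations from -0.37 to 0.22). A replicate block gave 3795 higher and 3711 lower in each mix and changed no named call. The sources do not tell whether libraries differ in RNA quality. With 2 libraries a group, leaving 1 out leaves a lone library that is assumed to vary like the others. With 1 library left out, no count moved by over 1.5 times, unlike under the settings above. In those fits the mean of both mixes lost its call for MYC, ARPC1B and MBLAC2, which the mixes moved in opposite directions.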

Other observations

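Metallothionein genes, whose products bind zinc and copper, were not in any list and were looked at after their values were seen. Of 4 tested, 3 rose in each mix against both controls (all tested genes: 22.2%). MT1X read 17.3 and 17.3 in controls, 64.1 and 76 in mix A, 169 and 168 in mix B, and 18.6 and 19.3 in DMSO. MT2A read 199 and 238 in controls, 649 and 764 in mix A, 1546 and 1437 in mix B and 295 and 288 in DMSO, and MT1E 89.4 and 106 in controls, 304 and 367 in mix A, 463 and 498 in mix B and 96.7 and 87.1 in DMSO. In MT1X, MT2A and MT1E mix B was the higher mix, and JQ1 raised them by 3.78, 2.45 and 2.10. MT1A read 0.0948 to 0.690 in control, BRD and DMSO libraries. Their sequences are close, so reads may be shared between them.

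Claudin genes, which form tight junctions, were lower than control siRNA in each mix in 6 of 7 tested (all tested genes: 27.1%), with a median of -0.91. Only 1 of the 7 was lower against both controls, under the share over all tested genes (22%). The 2 arrestin-domain genes TXNIP and ARRDC4, which limit glucose uptake, rose by 2.15 and 1.71 against control siRNA and by 2.39 and 1.63 against DMSO. TXNIP read 339 and 331 in controls, 1136 and 1265 in mix A and 1849 and 1863 in mix B. PPT1, a lysosomal thioesterase, fell from 189.6 and 183 to 25.6 to 28.3 while most called lysosome genes rose, and JQ1 gave -0.97. NACC1, a BTB-domain transcription regulator, read 139 and 152 in controls, 24.2 and 19.3 in mix A, 23.6 and 22.2 in mix B, and 153 and 160.3 in DMSO, and -0.22 with JQ1. SFN, the 14-3-3 sigma gene, fell from 73 and 81.1 to 9.05 to 11.6. These genes were chosen after their values were seen.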
